A study of Mus musculus with 6 samples.

Results

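Regulators of G protein signalling are the proteins of the Rgs gene family, taken here as every probe set whose only gene symbol in the platform annotation is Rgs followed by a number. The rule found 13 genes with 20 probe sets, of 8252 genes with a symbol of their own and 12488 probe sets in the whole table. The messenger RNA came from intraepithelial lymphocytes, the T cells that sit between the lining cells of the small intestine, on Affymetrix arrays read as 1 signal per probe set and array. There were 3 sorted subsets: T cells with the gamma delta receptor and the CD8 alpha alpha homodimer (TCRgd CD8aa), T cells with the alpha beta receptor and the same homodimer (TCRab CD8aa), and T cells with the alpha beta receptor and the CD8 alpha beta heterodimer (TCRab CD8ab). All were sorted from freshly isolated, untreated cells of C57BL/6 mice younger than 8 weeks, with no other allele or agent named. Each of 2 experiments pooled 20 mice and sorted every subset from that pool, so a subset has 2 arrays and each array stands for pooled animals. Some labels write TCRgb where the source of the same sample reads TCRgd, which is used here. P-values of the fit without a term for the experiment measure the spread between these 2 pools. With the experiment as a block, shifts of a whole pool are taken out, and p-values measure how subset differences vary between the pools. In such bulk samples fewer cells of a type and less RNA per cell cannot be told apart.

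Heterotrimeric G proteins carry signals from chemokine, lipid and hormone receptors while their alpha subunit holds GTP. RGS proteins bind the active alpha subunit and speed its hydrolysis of GTP, which shortens the signal, and in lymphocytes they are known for limiting the response to chemokines. The family is divided by structure: the R4 subfamily holds small proteins that act on Gi and Gq, the R12 subfamily holds Rgs10 and Rgs14, the R7 subfamily pairs with the beta subunit Gnb5, and the RZ subfamily holds Rgs19. In this table R4 was represented by Rgs2, Rgs3, Rgs4, Rgs5, Rgs8 and Rgs16, R7 by Rgs6, Rgs7, Rgs9 and Rgs11, R12 by Rgs10 and Rgs14, and RZ by Rgs19. Of the 20 family members listed in these subfamilies, 7, among them Rgs1, had no probe set of their own symbol and are not analysed here. In the mouse 6 of the 13 measured genes lie on chromosome 1, namely Rgs2, Rgs4, Rgs5, Rgs7, Rgs8 and Rgs16.

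The 2 experiments differed in RNA quality measures, and 1 array stood apart from the other 5. Experiment 2 had 3′ to 5′ signal ratios of 40.4 to 52.2 for actin and 22.3 to 29.6 for GAPDH, against 1.41 to 1.76 and 3.38 to 5.20 in experiment 1, so 5′ probes read far less in experiment 2. All 9 T cell markers were above a signal of 56.4, the filter on dim values, on all 6 arrays. The signal of Cd8b1, the CD8 beta chain on which the sort rests, was 28.1 and 763.1 in TCRgd CD8aa cells, 29.5 and 182.1 in TCRab CD8aa cells, and 17646.6 and 27591.7 in TCRab CD8ab cells. On the TCRgd CD8aa array of experiment 2 the summed signal of 13 enterocyte markers was 27037.6, against 1296.4 to 2617.5 on the other 5 arrays. The largest signals there were those of Krt20 (6705.7), Fabp1 (5134.3), Fabp2 (3902.4) and Apoa1 (3487.7). Not every marker was raised, since Cdh1 (209.0) and Anpep (113.8) lay within the range of the other arrays. Epcam (693.9) was near its 617.0 in TCRab CD8aa cells of experiment 1. The same array held 3751.8 from 4 goblet and Paneth cell markers, mostly Clca1 (2680.3) and Tff3 (998.8), against 224.6 to 428.2 on the others. On it 7 mast cell markers summed to 781, against 95.9 to 255, and 9 myeloid cell markers to 1061.7, against 383.2 to 945.4. Members of these 2 lists were not all raised there. Mcpt1 (331.8), Mcpt2 (245.1) and Lyz2 (303.0) were highest on this array, but Cma1 (28.2) and Cpa3 (28.3) lay within the range of the others. Cd68 (76.1) was lowest there. Jchain, made by plasma cells, was at 4023.1 there, against 61.8 to 677.7, while the other 6 B cell markers summed to 1245.3, within the 738.2 to 1475.8 of the other arrays. The part of other cells in any TCRgd CD8aa value was not tested, so differences of TCRgd CD8aa from TCRab CD8ab cells are also given without that array. A fit without an array leaves 1 array in that subset, whose spread is then taken from the other subsets.

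Of the 20 Rgs probe sets, 12 of 9 genes passed the filter on dim values, which asks for 2 arrays with a signal above 56.4. Of these 12, those of Rgs2, Rgs3, Rgs10, Rgs14, Rgs16 and Rgs19 were above it on all 6 arrays, while Rgs5, Rgs8 and Rgs11 were above it on 2 or 3 arrays only. Signals under 15.3, the 20th percentile of all values, were set to that floor before log2 was taken. Differences are in log2 units, first subset minus second, with the standard error of the fit that keeps the experiment as a block. They were tested with limma over 8299 probe sets, and the fit without the block called none in any comparison, at smallest adjusted p-values of 0.269, 0.265 and 0.788. Since all 3 subsets of an experiment come from 1 pool, the adjusted p with the experiment as a block is given beside it. An exact permutation test of 2 against 2 arrays cannot go below p = 0.333. The comparisons with TCRab CD8ab share those 2 arrays, so what is low in both is not seen independently.

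**Figure D1:**
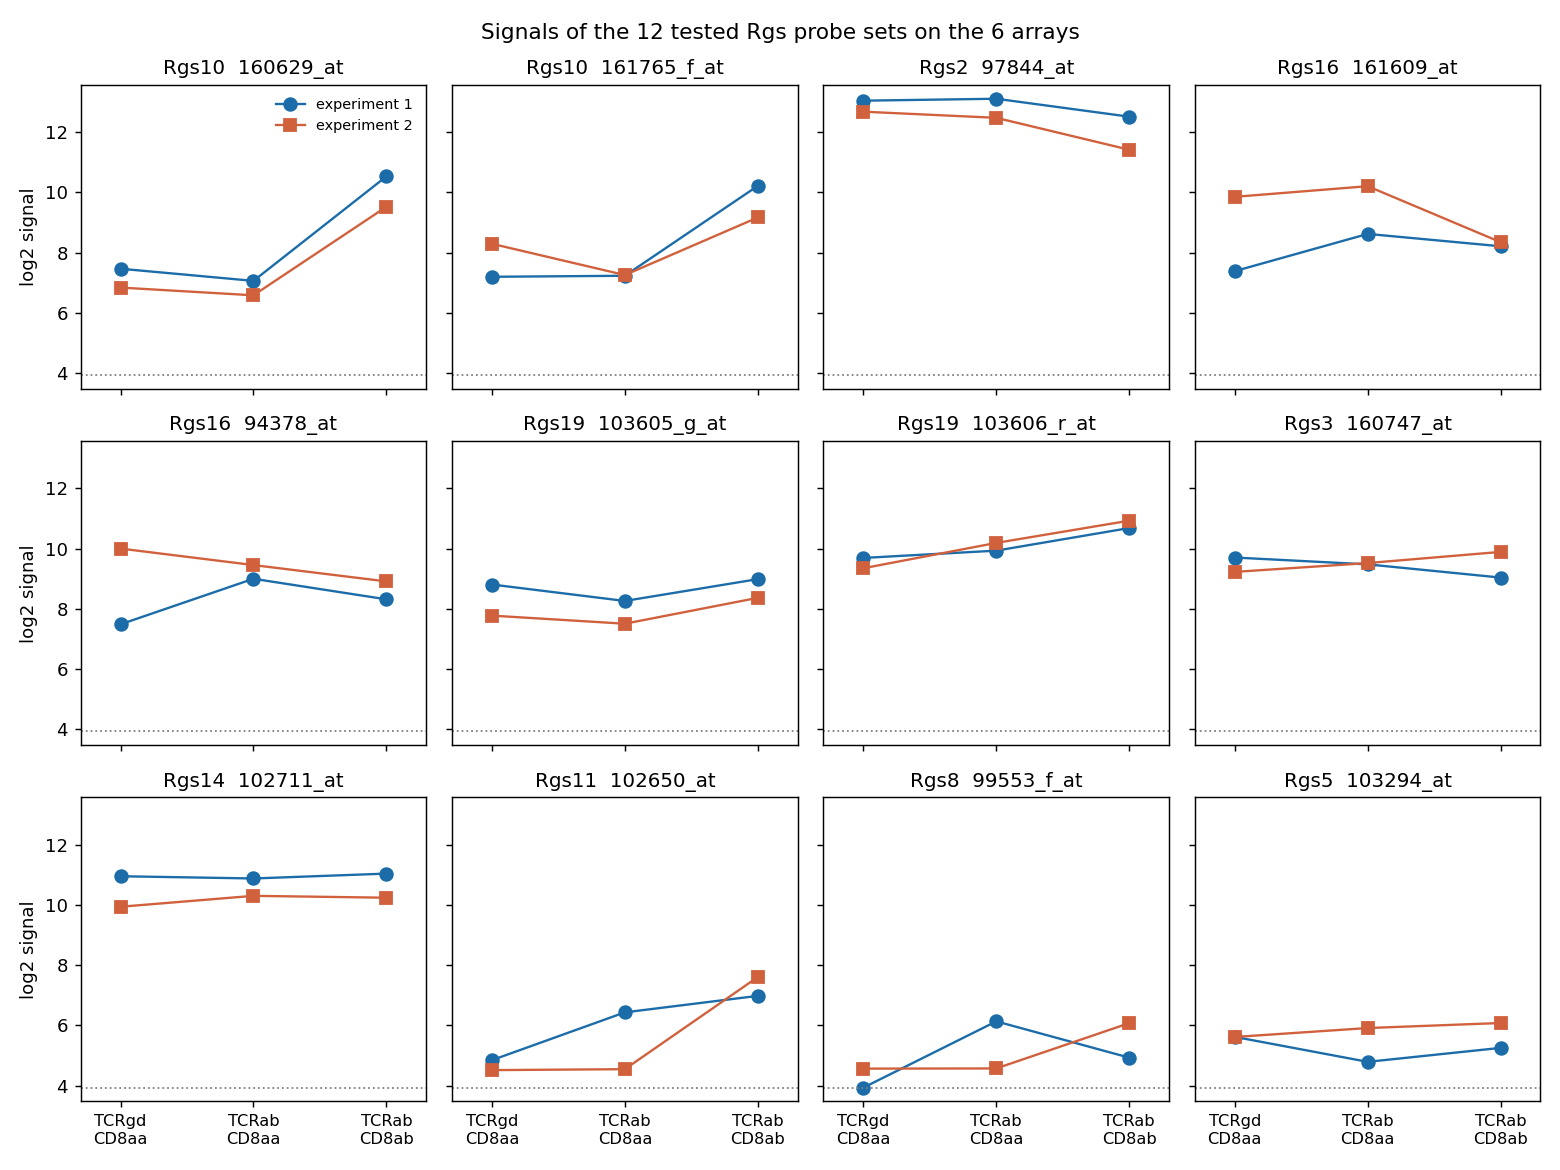
Log2 signal of each of the 12 tested Rgs probe sets (vertical axis) in the 3 subsets (horizontal axis), with a circle for experiment 1, a square for experiment 2 and the floor of 3.94 as a dotted line. Both Rgs10 panels are highest in TCRab CD8ab cells in both experiments, the Rgs2 panel is lowest there in both, and the 2 experiments cross or part in the Rgs3 and Rgs16 panels.

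On the probe set 160629_at, Rgs10 was the member that differed most from TCRab CD8ab cells. In the fit with the experiment as a block it was called lower there in both CD8aa subsets. The Rgs10 probe set with the higher mean log2 signal, 161765_f_at, was called in neither comparison in that fit of all 6 arrays. Rgs10 encodes a small RGS protein of the R12 subfamily, known from leukocytes and microglia, which acts on alpha subunits of the Gi group. Because the comparisons turn on this gene, the 250 bases before its start are shown, on the minus strand of chromosome 7 in RefSeq's GRCm38.p6, at chr7:128418173-128418422.
Rgs10: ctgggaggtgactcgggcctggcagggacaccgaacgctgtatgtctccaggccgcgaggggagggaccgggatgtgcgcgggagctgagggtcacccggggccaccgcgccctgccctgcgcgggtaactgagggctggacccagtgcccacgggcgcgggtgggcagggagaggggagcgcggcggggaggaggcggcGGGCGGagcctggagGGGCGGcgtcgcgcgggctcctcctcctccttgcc
The capitals mark the GC box, searched as GGGCGG on both strands, which is found 2 times, beginning 50 and 35 bases before the start, and in 32.7% of 32851 promoter windows of this length. Of the bases shown 76.4% are G or C, against a median of 52.4% over all windows. The letters TATAAA (in 12.4% of windows), TGACG (17.8%), TGANTCA (6.75%) and CANNTG (66.2%), searched the same way, do not occur in it. The array data hold no measurement at this promoter, so these matches are a description only.

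On the probe set 160629_at, Rgs10 had signals of 176.9 and 114.7 in TCRgd CD8aa cells, 133.8 and 96.0 in TCRab CD8aa cells, and 1479.5 and 735.8 in TCRab CD8ab cells in experiments 1 and 2. Both TCRab CD8ab arrays were above all 4 others. In mean log2 signal this was 7.15 ± 0.44, 6.82 ± 0.34 and 10.03 ± 0.71 (SD, n = 2 each) in TCRgd CD8aa, TCRab CD8aa and TCRab CD8ab cells. Rgs10 fell in TCRab CD8aa cells by 3.20 ± 0.38 log2 units against TCRab CD8ab cells, that is 9.21-fold lower, with a difference of -3.47 in experiment 1 and -2.94 in experiment 2. The adjusted p was 0.600 without the block and 0.00609 with it (limma, Benjamini-Hochberg over all tested probe sets), and the blocked 95% interval ran from -4.07 to -2.34. In size it was rank 37 of the 8299 probe sets.

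Rgs10 on the same probe set fell by 2.87 ± 0.38 log2 units in TCRgd CD8aa cells against TCRab CD8ab cells, or 7.32-fold lower, with differences of -3.06 and -2.68 in the 2 experiments. The limma adjusted p was 0.844 without the block and 0.0133 with it, and the interval was -3.74 to -2.01. Without the TCRgd CD8aa array of experiment 2 the blocked difference was -2.93 (limma adjusted p of 0.00163, with 1 TCRgd CD8aa array and the spread taken from the other subsets). Between TCRgd CD8aa and TCRab CD8aa cells the difference was 0.33 ± 0.38, with an interval of -0.53 to 1.19, and 0.27 without that array. Both calls are lost when dim probe sets are kept in the blocked fit (adjusted p of 0.522 for TCRab CD8aa and 0.402 for TCRgd CD8aa cells) or when its variance has no intensity trend (0.0918 and 0.118).

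The second tested Rgs10 probe set, 161765_f_at, also had its highest signals in TCRab CD8ab cells, with smaller differences. Its letter f is the manufacturer's mark for probes that may match related transcripts. It had signals of 147.0 and 314.1 in TCRgd CD8aa cells, 150.5 and 153.0 in TCRab CD8aa cells, and 1190.8 and 575.2 in TCRab CD8ab cells. The subsets did not overlap between either CD8aa subset and TCRab CD8ab, but the TCRgd CD8aa array of experiment 2 was higher than its counterpart of experiment 1. The difference was -2.45 ± 0.50 for TCRab CD8aa against TCRab CD8ab cells (-2.98 and -1.91 by experiment, blocked limma adjusted p = 0.0765). For TCRgd CD8aa against TCRab CD8ab cells it was -1.95 ± 0.50 (-3.02 and -0.87, adjusted p = 0.218), and -2.75 without the TCRgd CD8aa array of experiment 2, the one with raised enterocyte markers. That fit has 1 TCRgd CD8aa array and takes the spread from the other subsets, with a limma adjusted p of 0.00534. For TCRab CD8aa against TCRab CD8ab cells the blocked difference was -3.25 without the TCRab CD8ab array of experiment 2, with 1 TCRab CD8ab array left. Leaving out either TCRgd CD8aa array kept the difference of all arrays, -2.45, and changed only the spread estimated for it. The signals of both probe sets correlated with r = 0.908 over the 6 arrays. The third, 103384_at, was too dim to test, with 6.8 and 40 in TCRgd CD8aa, 8.2 and 6.9 in TCRab CD8aa, and 28.7 and 25.5 in TCRab CD8ab cells.

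**Figure D2:**
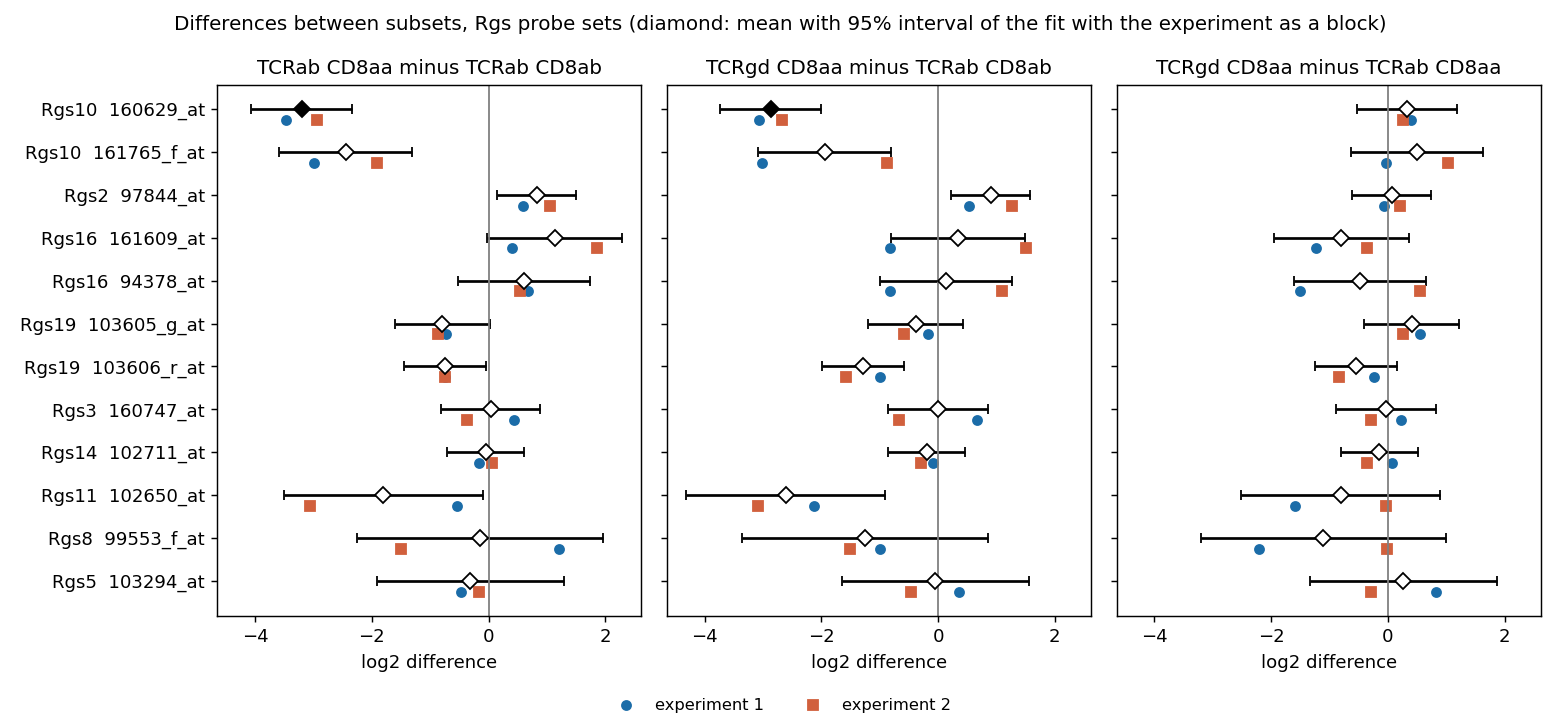
Log2 differences (horizontal axis) of the 12 tested Rgs probe sets (vertical axis) in the 3 comparisons, with a circle for experiment 1, a square for experiment 2 and a diamond with a bar for the mean and its 95% interval in the fit with the experiment as a block. The filled diamonds, with an adjusted p under 0.05 in that fit, are those of Rgs10 160629_at, at -3.20 and -2.87.

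Rgs2 ran the other way in sign, without passing the test. It encodes an R4 protein that acts mainly on Gq and whose gene is switched on early after stimulation of T cells. The 250 bases before its start are shown because its differences had the sign opposite to those of Rgs10, and they lie on the minus strand of chromosome 1 in GRCm38.p6, at chr1:144004150-144004399.
Rgs2: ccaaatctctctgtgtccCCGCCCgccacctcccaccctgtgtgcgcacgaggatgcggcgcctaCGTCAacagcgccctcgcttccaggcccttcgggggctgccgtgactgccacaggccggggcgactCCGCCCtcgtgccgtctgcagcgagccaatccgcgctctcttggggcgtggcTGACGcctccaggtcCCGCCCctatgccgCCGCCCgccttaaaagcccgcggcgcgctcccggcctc
Capitals mark 4 GC boxes, beginning 232, 119, 52 and 38 bases before the start, and 2 cyclic AMP response element half-sites (TGACG on either strand), at 185 and 67 bases, and no pair of these matches overlaps. G or C make up 72.4% of it, and the other motifs searched for Rgs10 do not occur.

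Rgs2 (97844_at) had signals of 8453.6 and 6562.1 in TCRgd CD8aa cells, 8835.7 and 5698.1 in TCRab CD8aa cells, and 5849.0 and 2734.9 in TCRab CD8ab cells. In each experiment TCRab CD8ab cells were lowest, but the TCRab CD8aa value of experiment 2 lay under the TCRab CD8ab value of experiment 1. The difference from TCRab CD8ab cells was 0.90 ± 0.30 for TCRgd CD8aa (0.53 and 1.26 by experiment, interval 0.22 to 1.58, blocked limma adjusted p = 0.411) and 0.83 ± 0.30 for TCRab CD8aa cells (0.60 and 1.06, interval 0.15 to 1.51, adjusted p = 0.418). Without the TCRgd CD8aa array of experiment 2 the TCRgd CD8aa value was 0.65. TCRgd CD8aa and TCRab CD8aa cells differed by 0.07, with an interval of -0.61 to 0.75, and by -0.18 without that array. Neither CD8aa subset stood apart from TCRab CD8ab cells past the threshold.

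Rgs16, an R4 protein, acts on Gi and Gq and is known to be induced on activation of T cells and to limit their chemokine response. On 161609_at it had signals of 167.4 and 925.4 in TCRgd CD8aa, 394.1 and 1181.7 in TCRab CD8aa, and 296.6 and 326.0 in TCRab CD8ab cells. On 94378_at it had 179.7 and 1026.7 in TCRgd CD8aa, 512.5 and 702.4 in TCRab CD8aa, and 319.3 and 482.3 in TCRab CD8ab cells. On both probe sets the highest and the lowest CD8aa array came from different experiments, and TCRgd CD8aa cells were lowest of all in experiment 1. TCRab CD8aa cells were above TCRab CD8ab cells without overlap on both, by 1.13 ± 0.51 (0.41 and 1.86) and 0.61 ± 0.50 (0.68 and 0.54), at blocked limma adjusted p-values of 0.502 and 0.719. Between TCRgd CD8aa and TCRab CD8ab cells the differences of 0.34 and 0.13 were averages of opposite values, -0.83 and 1.51 on the first and -0.83 and 1.09 on the second probe set. When the TCRgd CD8aa array of experiment 2 was left out they turned to -0.46 and -0.86. Without the TCRab CD8ab array of experiment 1, Rgs16 161609_at was called higher in TCRab CD8aa cells, with a difference of 2.08 and a blocked limma adjusted p of 0.0486, from 1 TCRab CD8ab array and the spread of the other subsets. The mean log2 signal over the 3 subsets was 1.40 and 1.19 higher in experiment 2 than in experiment 1, and 0.86 and 0.52 higher over TCRab CD8aa and TCRab CD8ab alone. The experiments also differ in the 3′ to 5′ ratios and in the enterocyte markers of the TCRgd CD8aa array given above, whose part in this was not tested.

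Rgs19, the RZ protein also known as GAIP, acts on Gi subunits and has been placed on vesicles of the secretory pathway. On 103606_r_at it had signals of 827.7 and 653.2 in TCRgd CD8aa, 978.7 and 1169.3 in TCRab CD8aa, and 1646.0 and 1950.6 in TCRab CD8ab cells. The 3 subsets did not overlap, in the order TCRgd CD8aa, TCRab CD8aa, TCRab CD8ab. The difference from TCRab CD8ab cells was -1.29 ± 0.31 for TCRgd CD8aa (-0.99 and -1.58, blocked limma adjusted p = 0.188) and -0.74 ± 0.31 for TCRab CD8aa cells (-0.75 and -0.74, adjusted p = 0.472). Without the TCRgd CD8aa array of experiment 2 the TCRgd CD8aa difference was -0.99. On 103605_g_at the order was another, with 448.8 and 219.5 in TCRgd CD8aa, 307.6 and 182.2 in TCRab CD8aa, and 508.1 and 330.4 in TCRab CD8ab cells. Here TCRab CD8ab cells were again highest within each experiment (a difference of -0.38 for TCRgd CD8aa and -0.79 for TCRab CD8aa cells), but the TCRgd CD8aa range overlapped theirs. With the TCRgd CD8aa array of experiment 2 left out, the TCRgd CD8aa difference was -0.21. The 2 probe sets correlated with r = 0.338 over the 6 arrays, and the third, 103604_at, was at the floor on all 6. The letters r and g mark probe sets chosen under relaxed rules or shared between groups of transcripts, so Rgs19 rests on probe sets that disagree on the order of the CD8aa subsets.

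Rgs14 differed little between subsets, while Rgs3 differed in opposite directions in the 2 experiments. Rgs14, an R12 protein that binds Gi alpha subunits and also Ras and Rap proteins, had signals of 1981.5 and 982.2 in TCRgd CD8aa, 1882.8 and 1262.6 in TCRab CD8aa, and 2105.7 and 1209.4 in TCRab CD8ab cells. Every subset was lower in experiment 2, and within an experiment the subsets lay close together. Against TCRab CD8ab cells the Rgs14 difference was -0.19 for TCRgd CD8aa (interval -0.85 to 0.47) and -0.05 for TCRab CD8aa cells (-0.71 to 0.61). Leaving out the TCRgd CD8aa array of experiment 2 gave -0.03 for TCRgd CD8aa. Rgs3, an R4 protein active on Gi and Gq, had 835.3 and 600.1 in TCRgd CD8aa, 713.6 and 735.6 in TCRab CD8aa, and 526.7 and 951.0 in TCRab CD8ab cells. The subset order of Rgs3 was opposite in the 2 experiments, and its mean differences were 0.00 for TCRgd CD8aa and 0.03 for TCRab CD8aa against TCRab CD8ab cells. These near-zero means average 0.67 and -0.66 in the first case and 0.44 and -0.37 in the second, and without the TCRgd CD8aa array of experiment 2 that of TCRgd CD8aa was 0.46.

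The other 3 tested members were dim. Rgs11 (102650_at), an R7 protein best known from retina and brain, had 28.8 and 22.9 in TCRgd CD8aa, 86.5 and 23.4 in TCRab CD8aa, and 126.4 and 194.8 in TCRab CD8ab cells. Its TCRab CD8ab arrays were above the other 4, which gave -2.61 ± 0.76 for TCRgd CD8aa (-2.13 and -3.09, blocked limma adjusted p = 0.307) and -1.80 ± 0.76 for TCRab CD8aa cells (-0.55 and -3.06, adjusted p = 0.472). Without the TCRgd CD8aa array of experiment 2 the TCRgd CD8aa difference was -2.76. A second Rgs11 probe set, 161309_r_at, read 2.1 to 48.3 and was at the floor on 4 arrays. Rgs5 (103294_at), an R4 protein known as a marker of pericytes, had 49.2 and 49.1 in TCRgd CD8aa, 27.7 and 60.3 in TCRab CD8aa, and 38.2 and 67.7 in TCRab CD8ab cells, with overlap between all subsets. Its difference of TCRgd CD8aa from TCRab CD8ab cells was -0.05, and 0.44 without the TCRgd CD8aa array of experiment 2. Rgs8 (99553_f_at), an R4 protein best known from brain, had 14.6 and 23.7 in TCRgd CD8aa, 70.3 and 23.8 in TCRab CD8aa, and 30.5 and 67.5 in TCRab CD8ab cells. Its TCRgd CD8aa arrays were below the other 4, the difference from TCRab CD8ab cells being -1.25 with an interval of -3.36 to 0.85, and -1.67 without the TCRgd CD8aa array of experiment 2.

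The 8 probe sets that failed the filter complete the family. Rgs4 (2.7 to 7.3) and Rgs6 (4.8 to 12.4), known from brain and heart, were at the floor on all 6 arrays. Rgs7 (7.4 to 37.4), known from brain, was at the floor on 4 arrays, and Rgs9 (6.2 to 34.4), known from retina and striatum, on 1. The second Rgs5 probe set, 96180_at, read 19.4 and 24.4 in TCRgd CD8aa, 6.4 and 6.4 in TCRab CD8aa, and 3.5 and 1.7 in TCRab CD8ab cells, with the last 4 under the floor. None of these signals reached the level of the filter, so no difference was measurable for Rgs4, Rgs6, Rgs7 and Rgs9, and this does not show that their messenger RNA is absent. Of the R7 genes, none was above the filter on all arrays.

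Counted over the family, the calls were few, and the shares over all probe sets set their scale. Between TCRab CD8aa and TCRab CD8ab cells 0 of 12 Rgs probe sets passed in the fit without the block, with a background of 0%, and 2 had an unadjusted p under 0.05 there, against 2.25% of all. In the blocked fit 1 of 12 was called, lower, against 0.819% of all probe sets called either way and 0.301% called lower, and 5 had an unadjusted p under 0.05, against 10.1%. Between TCRgd CD8aa and TCRab CD8ab cells 0 of 12 passed without the block (background 0%, 4 with an unadjusted p under 0.05 against 2.02%), and with it 1 of 12, lower, against 0.554% either way and 0.217% lower, and 5 with an unadjusted p under 0.05, against 8.21%. Without the TCRgd CD8aa array of experiment 2 the blocked differences between TCRab CD8aa and TCRab CD8ab cells kept their size, since that array is not in this comparison. Only their estimated spread changed. Between TCRgd CD8aa and TCRab CD8aa cells none of the 12 passed in either limma fit, at backgrounds of 0% and 0.0241%, and none had an unadjusted p under 0.05 in either, against 0.41% and 2.07% of all. The median difference of the 12 was -0.23, -0.29 and -0.09 in these comparisons, and that of all 8299 was -0.08, -0.06 and 0.0015.

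The arrays of TCRab CD8aa and TCRab CD8ab cells did not overlap for 7 of the 12 probe sets, against 22.9% of all. Higher in TCRab CD8aa were 2, both of Rgs16 (10% of all), and lower were 5, both tested ones of Rgs10 and of Rgs19 and that of Rgs11 (12.8% of all). For TCRgd CD8aa against TCRab CD8ab cells there were 6 without overlap, against 19.8%. Higher was 1, Rgs2 (9.39% of all), and lower were 5, both tested ones of Rgs10, Rgs19 103606_r_at, Rgs11 and Rgs8 (10.4% of all). For TCRgd CD8aa against TCRab CD8aa cells there were 2, against 14.4%, with 0 higher (7.78% of all) and 2 lower, Rgs19 103606_r_at and Rgs8 (6.64% of all). Probe sets of 1 gene read the same RNA, and Rgs8 and Rgs11 passed the filter through the subsets in which they were higher, so these counts do not support a statement on the family.

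Where Rgs16 had higher signals in experiment 2, several others had lower ones, with no test of this difference. Experiment 2 minus experiment 1, over the mean log2 signal of the 3 subsets, was -0.80 for Rgs14, -0.70 for Rgs2, -0.70 for Rgs10 160629_at and -0.80 for Rgs19 103605_g_at. It was 0.02 for Rgs10 161765_f_at, 0.05 for Rgs19 103606_r_at and 0.14 for Rgs3. Without TCRgd CD8aa it was -0.74 for Rgs10 160629_at and -0.51 for 161765_f_at, -0.69 for Rgs19 103605_g_at and 0.25 for 103606_r_at, and 0.45 for Rgs3. So the distance between the Rgs10 probe sets came mostly from TCRgd CD8aa cells, and that between the Rgs19 probe sets remained without them.

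Genes whose pattern over the 6 arrays was most like that of Rgs10 were read after the mean of each experiment was taken away. For 161765_f_at, the Rgs10 probe set with the higher mean log2 signal over the 6 arrays, they were Sit1, a membrane adaptor of lymphocytes, at a root mean square difference of 0.12 log2 units (r = 0.995), Ms4a6b, a membrane protein of leukocytes, at 0.20 (r = 0.988), and the chemokine receptor Ccr2 at 0.22 (r = 0.984). For 160629_at, added after its values were seen, they were the transcription factor Irf4 at 0.16 (r = 0.994), the galectin Lgals1 at 0.19 (r = 0.995) and the cytokine Tnfsf11, known as RANKL, at 0.25 (r = 0.984). The log2 signal of Irf4, for example, was 7.51 and 9.98 in TCRgd CD8aa, 6.96 and 9.37 in TCRab CD8aa, and 10.78 and 12.25 in TCRab CD8ab cells. So Irf4 was higher in experiment 2 in every subset, where Rgs10 160629_at was lower, and the likeness concerns the subsets within an experiment. The 2 Rgs10 probe sets have no neighbour in common among these. Ccr2 was dim and at the floor in both CD8aa subsets of experiment 1, so its likeness there depends on the floor. For Rgs11 the nearest were Mybl2 (0.37, r = 0.953), Igkv15-103 (0.40, r = 0.945) and Cryge (0.40, r = 0.945), a looser likeness among dim probe sets. All these points share 6 arrays, and the genes were picked from 7399 tested probe sets with 1 symbol for being close.

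**Figure D3:**
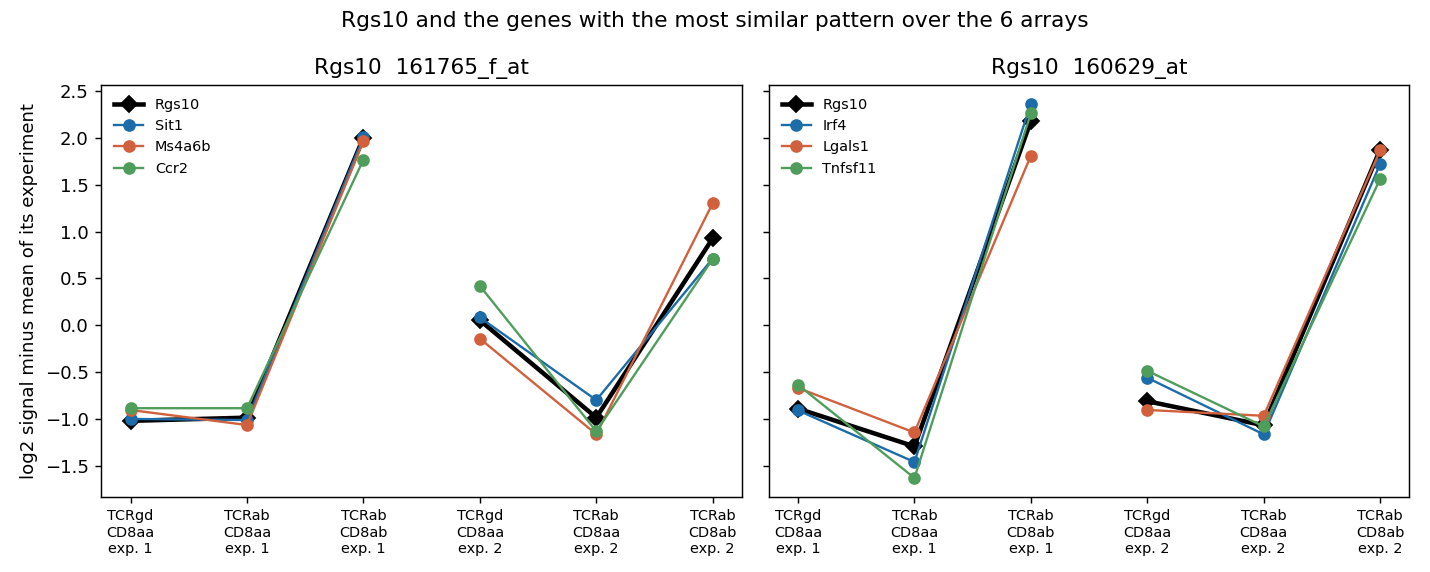
Log2 signal minus the mean of its experiment (vertical axis) on the 6 arrays (horizontal axis, by subset and experiment) for 2 Rgs10 probe sets in black and the 3 nearest genes of each in colour. All genes shown are highest in TCRab CD8ab cells in both experiments, and in experiment 2 TCRgd CD8aa lies further above TCRab CD8aa on the left than on the right.

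The genes around the RGS proteins in the pathway, 161 in 7 lists, had a probe set for 108 and a tested one for 76, and none of the 76 was called in any comparison by limma with or without the block. In the blocked fit 14 of them had an unadjusted p under 0.05 for TCRgd CD8aa against TCRab CD8ab cells, 13 for TCRab CD8aa against TCRab CD8ab cells and 3 for TCRgd CD8aa against TCRab CD8aa cells, where all probe sets had shares of 8.21%, 10.1% and 2.07%. Without the block these were 2, 4 and 1, where all probe sets had shares of 2.02%, 2.25% and 0.41%. The median difference of the 76 in the same order was -0.03, -0.13 and 0.07. Setd6 is counted among the 76, matched to a list gene by identifier or synonym, though it is not itself in the lists.

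Among receptors, 19 of 56 were tested, with medians of -0.15 for TCRgd CD8aa and -0.44 for TCRab CD8aa against TCRab CD8ab cells. Cxcr3, a chemokine receptor of effector T cells that signals through Gi, had signals of 591.7 and 434.7 in TCRgd CD8aa, 442.5 and 374.7 in TCRab CD8aa, and 1633.6 and 1065.8 in TCRab CD8ab cells. The TCRab CD8ab arrays were above the other 4, the CD8aa subsets overlapped, and the differences from TCRab CD8ab cells were -1.38 ± 0.32 (blocked limma adjusted p = 0.161) for TCRgd CD8aa and -1.70 ± 0.32 (0.0504) for TCRab CD8aa cells. Ccr9, the chemokine receptor known for homing of T cells to the small bowel, had 548.3 and 502.7 in TCRgd CD8aa, 315.4 and 441.3 in TCRab CD8aa, and 852.8 and 1131.1 in TCRab CD8ab cells, again without overlap with TCRab CD8ab. The Ccr9 differences were -0.90 (adjusted p = 0.500) and -1.40 (0.138). Between the CD8aa subsets the receptors with the smallest p were Hrh1, a histamine receptor, at 1.88 (0.96 in experiment 1 and 2.80 in experiment 2) and Ccr6, a chemokine receptor, at -1.57 (-1.28 and -1.87), both with a blocked limma adjusted p of 1.00.

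Among the G protein subunits, 8 of 15 alpha and 9 of 17 beta and gamma genes were tested. Gnb5, the beta subunit that partners R7 proteins such as Rgs11, had 159.1 and 208.9 in TCRgd CD8aa, 216.8 and 192.7 in TCRab CD8aa, and 75.2 and 100.8 in TCRab CD8ab cells. Gnb5 was lowest in TCRab CD8ab cells, where Rgs11 was highest, and its differences from them were 1.07 ± 0.45 for TCRgd CD8aa (blocked limma adjusted p = 0.573) and 1.23 ± 0.45 for TCRab CD8aa cells (0.419). Gnai2, the Gi alpha subunit of leukocytes, differed by -0.36 between TCRab CD8aa and TCRab CD8ab cells (0.38 and -1.09 by experiment). Gna11, of the Gq group, was at 1.20 for TCRgd CD8aa against TCRab CD8ab cells. Gng12 was 2.12 higher in TCRgd CD8aa than in TCRab CD8ab cells on average, but at 0.18 in experiment 1 and 4.06 in experiment 2, whose TCRgd CD8aa array holds the raised enterocyte markers. The Gng3 difference between TCRab CD8aa and TCRab CD8ab cells was -1.12.

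Downstream and beside the RGS proteins, the arrestin Arrb1, which uncouples receptors from G proteins, had 585.5 and 703.4 in TCRgd CD8aa, 949.5 and 1374.9 in TCRab CD8aa, and 269.8 and 481.4 in TCRab CD8ab cells. The 3 subsets did not overlap, with TCRab CD8aa highest, and the differences from TCRab CD8ab cells were 0.83 ± 0.32 for TCRgd CD8aa (blocked limma adjusted p = 0.522) and 1.66 ± 0.32 for TCRab CD8aa cells (0.0612). The receptor kinase Grk5 was at -0.35 for TCRgd CD8aa (0.04 in experiment 1 and -0.73 in experiment 2) and -0.76 for TCRab CD8aa cells. For the 30 effectors 12 genes were counted as tested. Among the 12 is Setd6, which is not itself in the list and was matched to a list gene by identifier or synonym. Itpr2, a calcium channel gated by inositol trisphosphate, differed by 0.79 for TCRgd CD8aa and 1.05 for TCRab CD8aa cells. Prkar1b, a regulatory subunit of protein kinase A, differed by 1.54 between TCRab CD8aa and TCRab CD8ab cells and by -2.03 between TCRgd CD8aa and TCRab CD8aa cells. Of 7 tested other regulators of 16, Rasd1, a Ras-like G protein induced by steroids, was at 1.19 and 1.33, and Gpsm3, which binds Gi alpha subunits, at -0.68 for TCRgd CD8aa against TCRab CD8ab cells. None of these passed the threshold.

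Immediate early genes, which like Rgs2 respond quickly to stimulation or handling of cells, had 18 of 20 members tested and medians of 0.03 for TCRgd CD8aa and -0.34 for TCRab CD8aa against TCRab CD8ab cells. Dusp2, a phosphatase of MAP kinases, had 462.8 and 310.1 in TCRgd CD8aa, 439.6 and 340.3 in TCRab CD8aa, and 1636.5 and 904.0 in TCRab CD8ab cells. Its TCRab CD8ab arrays were above the other 4, and the differences were -1.68 ± 0.33 (blocked limma adjusted p = 0.0833) and -1.65 ± 0.33 (0.0661). Nr4a1, an orphan nuclear receptor induced by T cell receptor signals, was at -0.89 and -0.98, with overlap. In experiment 1 alone, where the enterocyte markers were not raised in TCRgd CD8aa cells, the difference of TCRgd CD8aa from TCRab CD8ab cells was -1.82 for Dusp2, -0.80 for Nr4a1, -1.47 for Cxcr3, -0.64 for Ccr9, 1.08 for Gnb5 and 1.12 for Arrb1. It was nearer to 0 for Gna11 (0.47), Itpr2 (0.13), Rasd1 (0.10), Gpsm3 (-0.07) and Grk5 (0.04) than their means over both experiments. Dusp2 and Nr4a1 thus had the sign of Rgs10 and Rgs19 and not that of Rgs2, in values that did not pass the test. They were named for the smallest p and do not stand for the 18 tested members, which did not all share this sign. Btg2, for example, was lowest in TCRab CD8ab cells in both experiments, as Rgs2 was.

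**Figure D4:**
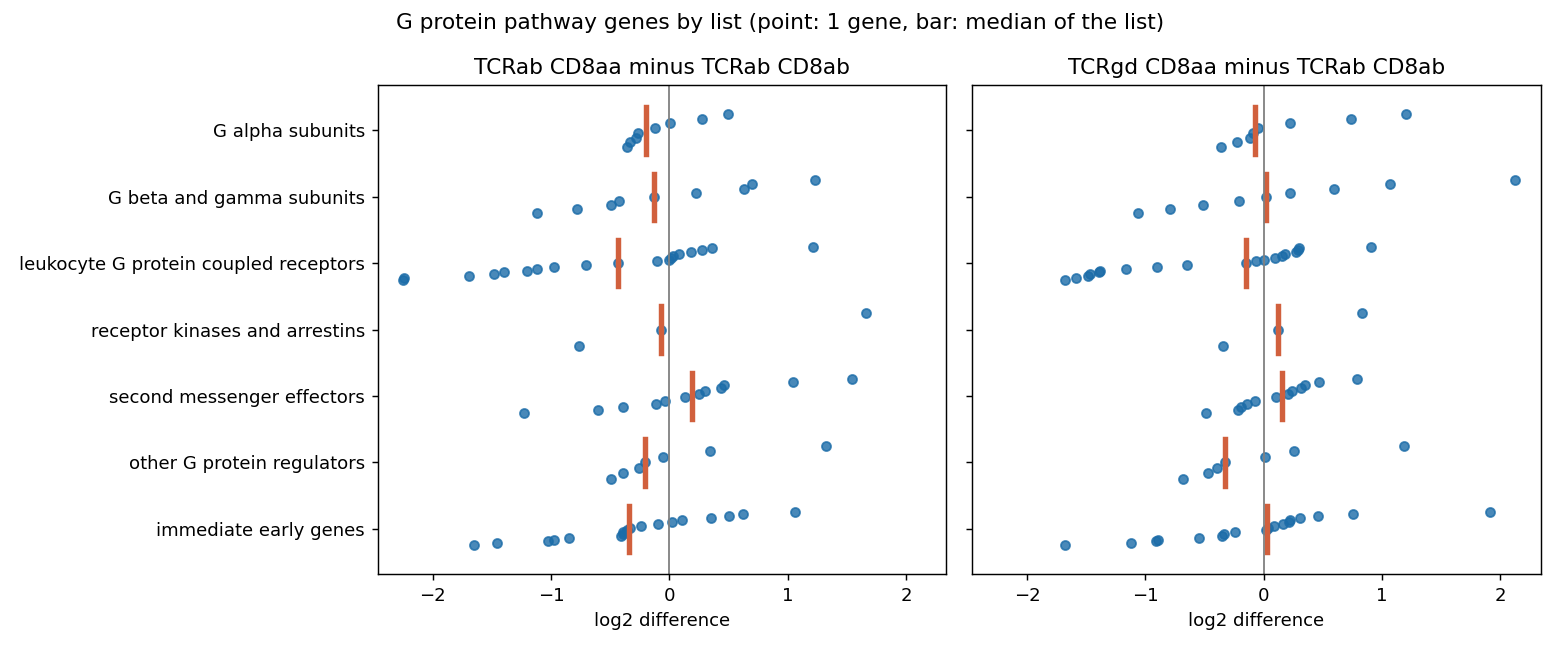
Log2 differences (horizontal axis) of the 76 tested pathway genes in their 7 lists (vertical axis), for TCRab CD8aa minus TCRab CD8ab on the left and TCRgd CD8aa minus TCRab CD8ab on the right, with a point for each gene and a bar for the median of its list. The medians lie between -0.44 and 0.19, and receptors and immediate early genes reach the lowest values on the left. The second messenger effectors include Setd6, which is not itself in that list.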

How the data were processed

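The members and gene lists were chosen with earlier results of these data known. Signals are intensity on a linear scale, 1 per probe set and array, which the authors deposited after MAS5 (version not given in the sources used here), per the submitters' processing notes. Detection calls and probe positions were not used here. Array signals are limited in precision by the 6 arrays. Of 12488 probe sets, 66 were controls, 10833 carried 1 gene symbol, 396 several and 1193 were without annotation. Each array was scaled to a common trimmed mean (2% left out at each end, factors of 0.999915 to 1.00006), set to a floor at the 20th percentile (15.3) and put on a log2 scale. Testing was limited to probe sets with a signal above 56.4 (the 40th percentile) on at least 2 arrays. It used limma 3.58.1 in R 4.3.3 (lmFit, eBayes with an intensity trend, Benjamini-Hochberg adjustment over all 8299 tested, threshold 0.05). Before this, the fit was run on simulated data in which all probe sets had the same spread. That run cannot show how the fit behaves where spreads differ between probe sets. The fit used all 6 arrays without a block. The alternative with the experiment as a block rests on the shared pool of mice, and deviations from subset means correlated between arrays of an experiment with r of 0.618, 0.713 and 0.603. Other alternatives changed the scaling, floor, filter, moderation and arrays.

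All Rgs probe sets are named. Of each pathway list, per comparison, up to 2 genes with the smallest p in the blocked fit could be named, besides any called. For each Rgs gene whose brightest probe set differed by at least 1 log2 unit in the same direction in both experiments, the 3 genes with the nearest pattern are named. Figures were drawn with matplotlib 3.10.9 in Python 3.11.15. Promoter sequences are from RefSeq (GRCm38.p6).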

Additional observations from a re-analysis of the deposited data

How the results depend on the processing

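No Rgs probe set was called in any comparison under any alternative without the block. With the replicate block, which rests on the pool of mice that the subsets of an experiment share, 1 was called for TCRab CD8aa and 1 for TCRgd CD8aa against TCRab CD8ab cells, and 0 between the CD8aa subsets. These counts were also 1 and 1 with quantile normalization, with the floor at the 30th percentile and with log2(signal + 16), 2 and 1 with only the 4 arrays compared, and 0 and 0 with no filter or no intensity trend, and the cause was not tested. Over all probe sets the blocked calls were 68 and 46, but 0 and 0 with no filter, 6 and 3 without the trend, and 169 and 50 with only the 4 arrays. Leaving out 1 array moved them to between 22 and 182 for TCRab CD8aa and between 30 and 193 for TCRgd CD8aa, and the 2 calls between the CD8aa subsets to between 1 and 114. Leaving out 1 array gave 0 to 2 called Rgs probe sets in both comparisons, the 0 always without the block. The called probe set was Rgs10 160629_at in 11 of 13 blocked settings (adjusted p of 8.58e-09 to 0.522 for TCRab CD8aa and 0.00163 to 0.402 for TCRgd CD8aa cells). Rgs10 161765_f_at was called in 4 and 1 of them, all of which left out at least 1 array, and Rgs16 161609_at in 1 (TCRab CD8aa), which also left out an array. Differences near 0 turned sign: Rgs8 between TCRab CD8aa and TCRab CD8ab was 0.12 with quantile normalization and 0.029 with the floor at the 30th percentile, Rgs3 between TCRgd CD8aa and TCRab CD8ab was -0.00042 with log2(signal + 16), and between TCRgd CD8aa and TCRab CD8aa quantile normalization gave -0.0056 for Rgs5 and 0.0019 for Rgs3, with and without the block. For TCRab CD8aa against TCRab CD8ab cells, leaving out 1 array turned the sign of some uncalled differences, which ran from -0.45 to 0.35 for Rgs14 102711_at, -0.88 to 0.25 for Rgs5 103294_at, -0.50 to 0.57 for Rgs3 160747_at and -1.38 to 1.08 for Rgs8 99553_f_at. For TCRgd CD8aa against TCRab CD8ab cells these ranges were -0.70 to 0.31 for Rgs14 102711_at, -0.54 to 0.44 for Rgs5 103294_at, -0.90 to 0.13 for Rgs19 103605_g_at, -0.53 to 0.54 for Rgs3 160747_at, -0.89 to 1.57 for Rgs16 161609_at and -1.13 to 1.39 for Rgs16 94378_at. For TCRgd CD8aa against TCRab CD8aa cells they were -1.83 to 0.21 for Rgs11 102650_at, -0.65 to 0.36 for Rgs14 102711_at, -0.30 to 0.83 for Rgs5 103294_at, -0.11 to 0.92 for Rgs19 103605_g_at, -0.50 to 0.43 for Rgs3 160747_at, -2.03 to 0.44 for Rgs16 161609_at, -0.30 to 1.31 for Rgs10 161765_f_at, -1.74 to 0.77 for Rgs16 94378_at, -0.25 to 0.39 for Rgs2 97844_at and -2.33 to 0.12 for Rgs8 99553_f_at. The median standard error of a difference over all tested probe sets was 0.71 log2 units without the block and 0.42 with it, and differences of that size were not resolved.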
